A study of Bos taurus with 16 samples.

Results

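Mitochondrial ribosomal protein genes were taken from the file's exon annotation by symbol (MRPL or MRPS followed by a number), which gave 74 genes. Each gene was represented by 1 region holding exons of no other gene, picked for having the top mean across all 16 libraries, and its level is the scaled mean coverage per base there. Such a region existed for 72 of the 74, out of 11995 genes in all, and all 72 passed the filter on low values (at least 0.5 in at least 4 libraries), which 9443 genes passed. MRPS7 and MRPL55 had only regions shared with another gene (MIF4GD and GUK1) and were not tested. The region of each gene was therefore chosen by coverage, not by any group difference.

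Poly-A RNA was taken from papillae clipped off the rumen wall, the projections that enlarge its surface, in 16 crossbred steers aged 344 ± 48 days, with 1 library per animal and 4 animals in each of 4 groups. The groups, the quadrants of gain and dry matter intake in which the animals fell, are written HH (both high), HL (gain high, intake low), LH (gain low, intake high) and LL (both low). No treatment was given, and all animals ate the same ration freely (57.35% corn, 30% distillers grains, 8% alfalfa). Papillae are a mixed tissue, so fewer cells of a type and less RNA per cell cannot be told apart.

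Mitochondria carry their own ribosome, which translates the few proteins encoded by mitochondrial DNA, all of them subunits of the respiratory chain and ATP synthase. Its ribosomal RNAs come from mitochondrial DNA, whereas every protein of its small (MRPS) and large (MRPL) subunits is encoded in the nucleus, made in the cytosol and imported. Some of these proteins descend from bacterial ribosomal proteins and others are specific to mitochondria. In the rumen wall, the epithelium absorbs and oxidises the short-chain fatty acids of fermentation, which uses mitochondria.

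The estimated depth was 11.9 to 21.2 M reads per library, and the mitochondrial genome held 8.75% to 28.0% of the covered bases. All 13 epithelial markers were measured, with a summed level of 1159 to 2700 per library, whereas HBB and HBA, the erythrocyte markers, had no tested region. In 5 libraries first exons were thinly covered: animal 4 of HH, animals 2, 3 and 4 of HL, and animal 3 of LL. Their first-exon index, a log2 measure of first-exon coverage over 1840 genes of many exons, was -2.65 to -1.98, against -1.24 to -0.335 in the other 11 libraries. High gain held 4 of the 5 and low intake held 4 of the 5.

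Members were well covered genes of middling level. The mean level per gene, in scaled mean coverage per base, ran from 1.48 to 37.3 with a median of 11.8. The median over all tested genes was 4.29, over 80 nuclear oxidative phosphorylation genes 23.6, and over 79 cytosolic ribosomal protein genes 109. Small subunit genes (25 tested) had a median level of 11.3 and large subunit genes (46 tested) one of 12.7. Genes with a bacterial counterpart (45 tested) stood at a median of 11.1, and those specific to mitochondria (26 tested) at 14.3. MRPS36, whose product is now known as a component of the 2-oxoglutarate dehydrogenase complex rather than of the ribosome, was counted in no subunit and stood at 13.3 ± 8.18 (SD, n = 16). Regions could also hold intron or intergenic bases, and their lengths differed (100 bases for MRPL13 and 4735 for MRPS23). Levels of different genes were thus not measured over like stretches, and the part of this in their order was not tested.

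Among large subunit genes, MRPL13 had the highest level of all members, at 37.3 ± 12.9 (SD, n = 16; exon 5, chromosome 14, 84146121 to 84146220, UMD3.1). MRPL3, whose product lies near the catalytic centre, followed at 34.7 ± 16.6, and MRPL42, a protein specific to mitochondria, at 34.3 ± 13.8. MRPL17 and MRPL53 stood at 31.3 ± 16.0 and 29.9 ± 6.78. The 5 means differ by less than the SD of MRPL13, and their order was not tested within animals. At the low end stood MRPL23 at 1.48 ± 1.17, MRPS12 at 2.26 ± 1.84, MRPL33 at 2.35 ± 1.68, MRPS18A at 3.34 ± 2.51 and MRPL32 at 3.40 ± 2.22. MRPL23 encodes a protein of the exit tunnel and MRPS12 a protein of the decoding centre.

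The 3 counterparts of bacterial S18 differed in level. MRPS18C stood at 10.8 ± 2.90 and MRPS18B at 9.21 ± 2.24 (SD, n = 16), both proteins of the small subunit, against 3.34 ± 2.51 for MRPS18A, whose product sits in the large subunit despite its name. MRPS18A was below MRPS18B in every one of the 16 libraries. MRPS30, another protein of the large subunit with a small subunit name, was at 9.03 ± 3.12, and MRPL45, which tethers the ribosome to the inner membrane, at 22.4 ± 7.50. MRPL44, which has a ribonuclease III fold, was at 12.7 ± 2.76, MRPS22 at 17.7 ± 5.63 and MRPS34 at 22.9 ± 15.2. Mutations in MRPL44, MRPS22 and MRPS34 cause respiratory chain deficiency in people.

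**Figure D1:**
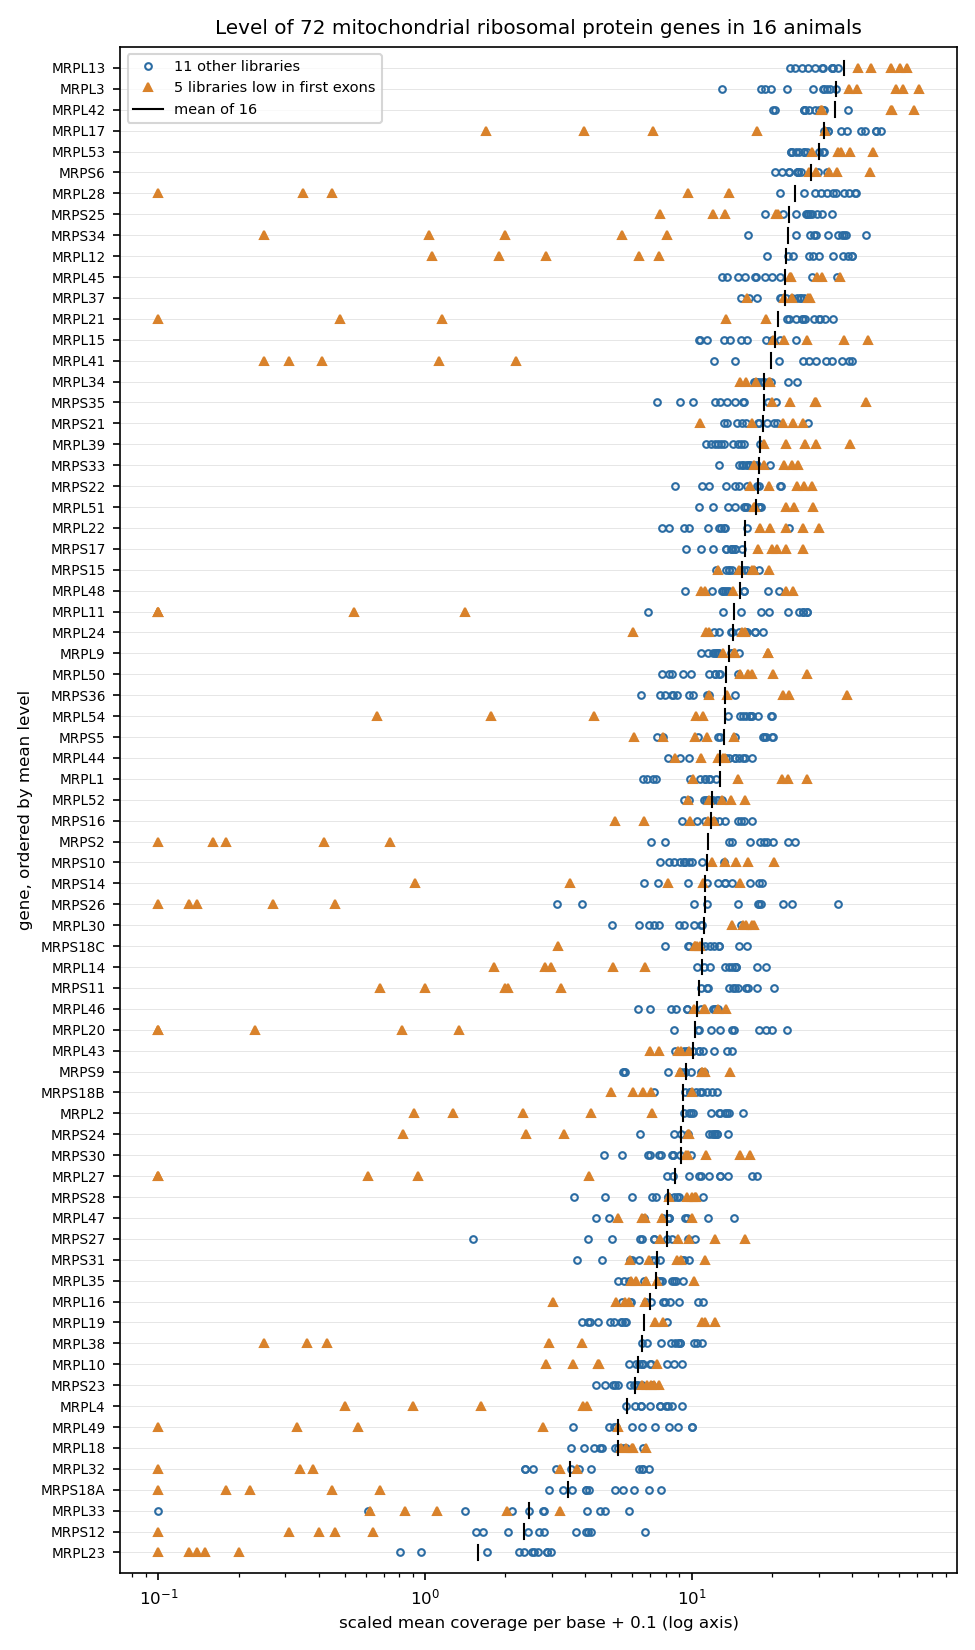
Level of 72 genes (vertical axis, ordered by mean) in 16 libraries, as scaled mean coverage per base + 0.1 on a log axis; triangles are the 5 libraries low in first exons, circles the other 11, and bars the mean. Means run from 1.48 for MRPL23 to 37.3 for MRPL13, and in many genes the triangles lie far to the left.

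Over the 11 libraries the members' median spread was below that of all genes: the median SD of the log2 level was 0.316, against 0.400 for all tested genes. Within groups over all 16 libraries the median SD was 0.515, against 0.653 for all tested genes. By these 2 measures cytosolic ribosomal protein genes stood at 0.256 and 0.587. Nuclear oxidative phosphorylation genes stood at 0.310 and 0.828, so a low spread over the 11 libraries was not particular to the members. The members' median level was above that of all tested genes (11.8 against 4.29), and spreads were not compared at like levels. The steadiest member was MRPL34, at 18.36, 17.50, 18.65 and 19.55 in HH and 17.11, 15.15, 15.96 and 19.37 in HL. It stood at 17.57, 19.24, 17.25 and 17.96 in LH and 23.00, 19.81, 17.41 and 24.82 in LL. All 4 groups of this large subunit gene overlapped. MRPS15, MRPL52, MRPS23 and MRPL9 followed, with SDs of 0.19, 0.20, 0.23 and 0.24 on the log2 scale against 0.18 for MRPL34.

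The most variable members were MRPL11, MRPS26, MRPS2, MRPL28 and MRPL20, with SDs of 3.21, 3.11, 2.97, 2.83 and 2.83 on the log2 scale. MRPL11 encodes a protein of the factor-binding stalk. Its level was 15.25, 19.44, 12.97 and 0.00 in HH, 6.76, 0.00, 0.44 and 1.32 in HL, 22.86, 26.19, 26.19 and 18.18 in LH, and 27.11, 25.28, 0.00 and 26.97 in LL. The 5 values under 2 are those of the 5 libraries low in first exons. Over the 11 other libraries the SD of MRPL11 was 0.61 on the log2 scale.

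Between the 5 and the 11 libraries the members split in opposite directions. On the log2(level + 0.1) scale the median difference of the 72 was -0.15, against 0.01 over all tested genes. It was lower by more than 1 in 24 members (33.3%, near the 32.8% of all tested genes) and higher by more than 0.5 in 18 (25%, against 33.5%). The 5 libraries were set apart by first-exon coverage, so no test is attached to these differences. The lowest were MRPL11 at -6.35, MRPS26 at -6.15, MRPS2 at -5.99 and MRPL20 at -5.55, and the highest MRPS35, MRPL3 and MRPS36 at 1.11, 1.10 and 1.09 (MRPS35, like MRPS6 and MRPS11 described further on, was chosen after its values were seen).

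The position of the chosen region in the transcript went with this difference, as the split by first-exon coverage would make it do. The region of 14 members (19.4%, against 8.15% of all tested genes) held the first exon, and 8 of these 14 were lower by more than 1, with a median difference of -1.87. Of the 58 members whose region held no first exon, 16 were lower by more than 1, and their median was 0.14. The regions were 73 to 6743 bases long with a median of 334.5, and 52 of the 72 held a lone exon.

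**Figure D2:**
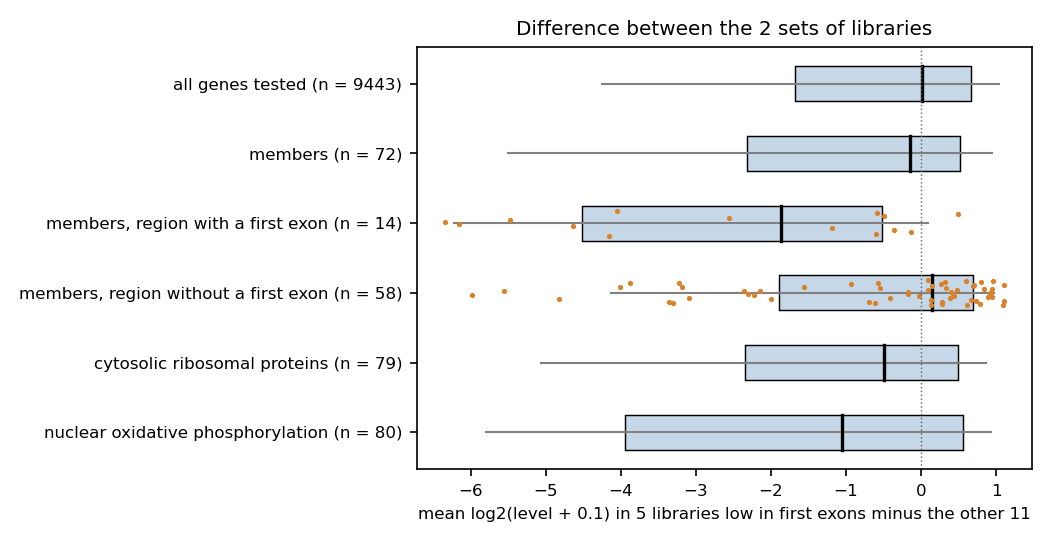
Difference in mean log2(level + 0.1) between the 5 libraries low in first exons and the other 11 (horizontal axis), by gene list; boxes span the middle of each list from the lower to the upper quartile, thick bars are medians, thin lines run from the lower to the upper 5% point, and dots are single members. Members with a first exon in their region have a median of -1.87 and those without 0.14.

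Within the same gene, exons went opposite ways, so the level of such a member depended on which exon stood for it. MRPL20, a large subunit gene, had an exon 1 level of 0.082 ± 0.115 in the 5 libraries and 13.5 ± 5.37 in the other 11 (SD). Its exon 2, the region chosen here (chromosome 16, 52383544 to 52383770), was at 0.418 ± 0.548 against 14.7 ± 4.51. Its last exon, exon 4, was at 11.2 ± 1.40 against 9.18 ± 0.881, with ranges of 9.06 to 12.49 and 7.91 to 10.83 that overlapped.

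MRPS6, a small subunit gene, was more extreme: its exon 1 was listed at 0 in all 5 libraries and at 2.74 to 15.44 in the other 11. Its exon 3 was at 27.54 to 46.78 in the same 5 and 20.50 to 32.02 in the 11. MRPL3 had exon 4 at 54.4 ± 13.8 in the 5 libraries and 25.7 ± 7.46 in the 11, while an exon 1 region was at 0.200 ± 0.204 against 10.2 ± 8.19. All 9 regions of MRPL3 from exon 2 onward were higher in the 5 libraries, by 0.75 to 1.21 on the log2 scale.

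Other members were low along the whole transcript in the 5 libraries. MRPL28 was at 1.43 ± 1.89 in exon 6, its last, against 30.1 ± 8.00 in the 11 libraries, and at 1.49 ± 1.66 against 12.4 ± 2.54 over exons 1 to 4. MRPS2 was at 0.220 ± 0.265 in exon 4, its last, against 16.5 ± 5.53, and its exons 1 and 2 were listed at 0 in all 5 libraries and in some of the 11. Neither gene's best region overlapped between the 5 and the 11 libraries. The share of all tested genes without overlap was not counted, but 32.8% of them were lower by more than 1 in the 5 libraries. Over 53 members with separate first-exon and last-exon regions and a mean of at least 1 in the 11 libraries, the first-exon difference was below the last-exon difference in 49. The 5 libraries were picked for low first-exon coverage, so that order was set in advance and is no separate result about the members. The median difference was -3.46 for the first-exon regions and 0.02 for the last-exon regions, and 17 of the 53 were lower by more than 1 in the last exon too.

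**Figure D3:**
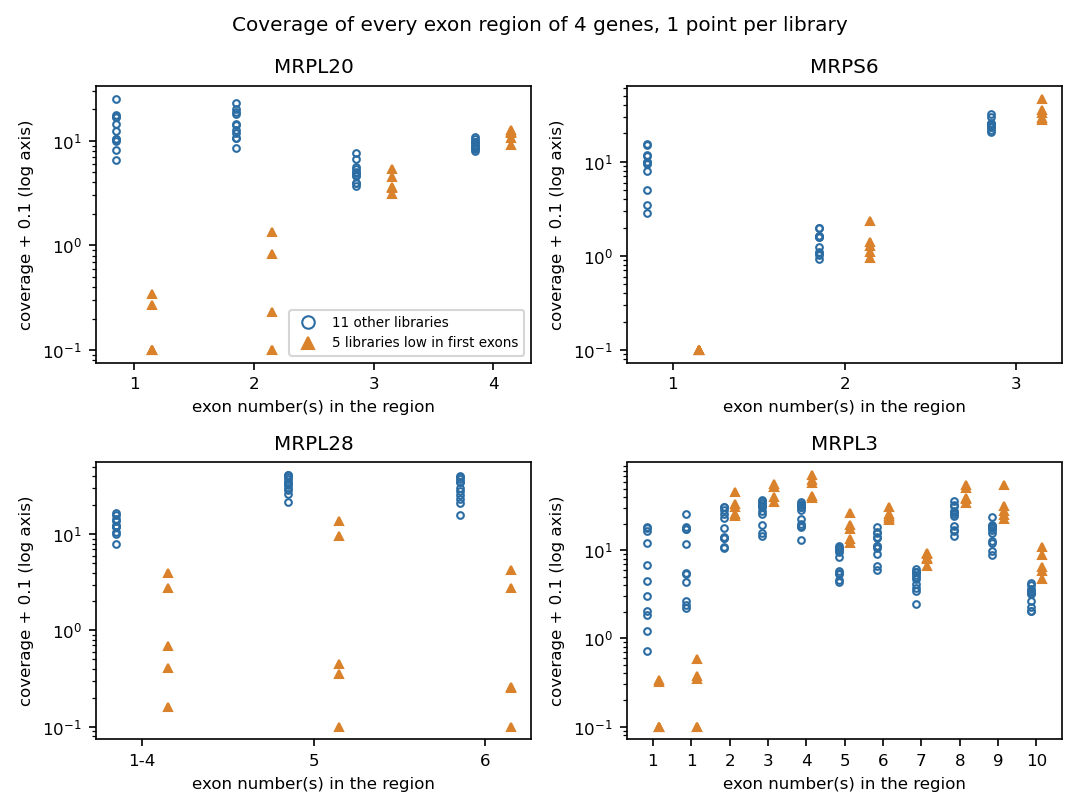
Coverage + 0.1 on a log axis for each exon region of MRPL20, MRPS6, MRPL28 and MRPL3, 1 point per library, ordered by exon number from the start of the transcript; triangles are the 5 libraries low in first exons and open circles the other 11. Exon 1 is near 0 in the triangles for MRPL20, MRPS6 and MRPL3, the last exon of these 3 genes is not, and in MRPL28 all regions are low.

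The summed level of the 72 members was 847.3 to 975.3 in the 5 libraries and 884.3 to 1261 in the other 11, and the ranges overlapped. The member median was 6.8 in LL animal 3, the lowest, where 9 members were listed at 0. In the other 15 libraries it was 9.67 to 14.6, with 0 to 3 members at 0. By group, the summed level was 949.4 ± 56.8 in HH, 926.4 ± 62.8 in HL, 993.1 ± 85.9 in LH and 1132 ± 125 in LL (SD, n = 4 each).

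Gain was compared as the 2 high-gain groups against the 2 low-gain groups, 8 animals each, in a limma model on log2(level + 0.1). No member and no other gene (0% of 9443) passed an adjusted p of 0.05, and the smallest adjusted p of a member was 0.847. At an unadjusted p under 0.05, 0 members were higher and 2 lower, against 0.974% and 4.31% of all tested genes (5.28% in either direction). Those 2 became 26 without LL animal 3, where 2959 of 9443 genes passed that p, against 499 with all libraries. They became 5 without HL animal 1 (734 genes), and 2 or 3 without any other animal (283 to 725 genes). With the first-exon index as a covariate they became 27 (3263 genes), and under quantile normalization 8 (1011 genes). The median member difference was -0.08 (all genes -0.04), and 31 members had positive and 41 negative estimates. This sign depends on the scaling: with libraries scaled to the same median the member median was 0.12 with 44 positive. That scaling shifted the median of all genes by 0.195, and relative to all genes the member median was -0.03 under both, and -0.13 under quantile normalization. The member median was -0.10 with 24 positive without the 5 libraries, and 0.06 with 39 positive with the index.

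The 2 members at an unadjusted p under 0.05 were MRPL23 and MRPS26. MRPS26, a small subunit protein specific to mitochondria, was at 10.16, 14.83, 3.77 and 0.00 in HH and 3.03, 0.03, 0.17 and 0.36 in HL. It was at 17.71, 11.29, 18.14 and 17.79 in LH and 21.85, 23.73, 0.04 and 35.33 in LL. Apart from LL animal 3, every low-gain value was above 11 and only 1 high-gain value was. The means were 4.04 ± 5.55 and 18.2 ± 10.1 (SD, n = 8 each), with a log2 difference of -3.22 (SE 1.25, limma adjusted p = 0.847).

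MRPL23 averaged 0.841 ± 1.10 in high-gain and 2.12 ± 0.904 in low-gain animals (log2 -2.03, SE 0.72, limma adjusted p = 0.847), with 7 of 8 high-gain libraries below the low-gain median. The annotation also places MRPL23 on chromosome 10 (8139748 to 8140457), in a region shared with AGGF1 whose mean level is 6.88. The region used here is on chromosome 29 (50182522 to 50183318). Reads could have been split between these copies, so the values of MRPL23 are uncertain.

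MRPL41, a large subunit protein specific to mitochondria with a lone annotated exon, was at 9.66 ± 10.3 and 29.8 ± 12.7 (log2 -2.41, SE 1.17, limma adjusted p = 0.847). MRPL11 was at 7.02 ± 7.85 and 21.6 ± 9.22 (log2 -2.67, SE 1.39). In both genes all 8 high-gain libraries lay below the low-gain median, and the ranges overlapped. LL animal 3, at 0.21 and 0.00, was the lowest low-gain library in both. Apart from it the ranges of MRPL41 did not overlap, and those of MRPL11 still did (up to 19.44 at high and from 18.18 at low gain). The positive estimates with the smallest p were MRPL9 (log2 0.24, SE 0.14, limma adjusted p = 0.847), MRPL22 (0.32, SE 0.22), MRPL19 (0.31, SE 0.26) and MRPS17 (0.23, SE 0.20), all large subunit genes but the last. No member's 8 high-gain values lay wholly above or below the 8 low-gain values (background 0.0212% above and 0.0106% below).

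Without the 5 libraries low in first exons, 4 members were lower at high gain past an adjusted p of 0.05, of 58 genes in all (0.614%), every one of them lower. Leaving out LL animal 3 alone also gave 58 genes, with 0 members among them. In the 11 libraries HL is 1 animal, assumed to vary like the other groups. MRPL41 was at 18.4 ± 6.35 in 4 high-gain and 34.0 ± 4.76 in 7 low-gain libraries (log2 -1.14, SE 0.18, limma adjusted p = 0.0278), with ranges of 12.04 to 25.99 and 27.54 to 40.02 that did not overlap. MRPL11 was at 13.6 ± 5.29 and 24.7 ± 3.21 (log2 -1.26, SE 0.17, adjusted p = 0.0245), and MRPS26 at 7.95 ± 5.60 and 20.8 ± 7.49 (log2 -2.01, SE 0.36, adjusted p = 0.0449). MRPL33, a small large-subunit protein, was at 1.77 ± 1.21 and 3.32 ± 1.89 (log2 -2.59, SE 0.47, adjusted p = 0.0454). Its region is 73 bases long with a median of 4.4 estimated reads per library, and the lone animal of HL was listed at 0 while the other 3 high-gain animals were at 2.02 to 2.70, inside the low-gain range of 0.51 to 5.73.

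All 4 of these members were represented by a region with the first exon. Among the 11 libraries the first-exon index was -1.24 to -0.685 at high gain and -0.74 to -0.335 at low gain, so gain and first-exon coverage went together there too. In exons 3 to 5 of MRPL11 the same 4 and 7 libraries were at 10.9 ± 0.815 and 13.1 ± 1.84, and in exon 4 of MRPS26 at 11.4 ± 2.92 and 12.7 ± 2.07. These differences are smaller than in the first-exon regions. With the index as a covariate over all 16 libraries, 18 members passed, 17 higher and 1 lower at high gain, against 12% and 2.48% of all tested genes. The estimates of MRPL11, MRPL41 and MRPS26 were then positive (1.10, 0.76 and 0.20). The direction of these members with gain therefore changed with the handling of first-exon coverage.

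**Figure D4:**
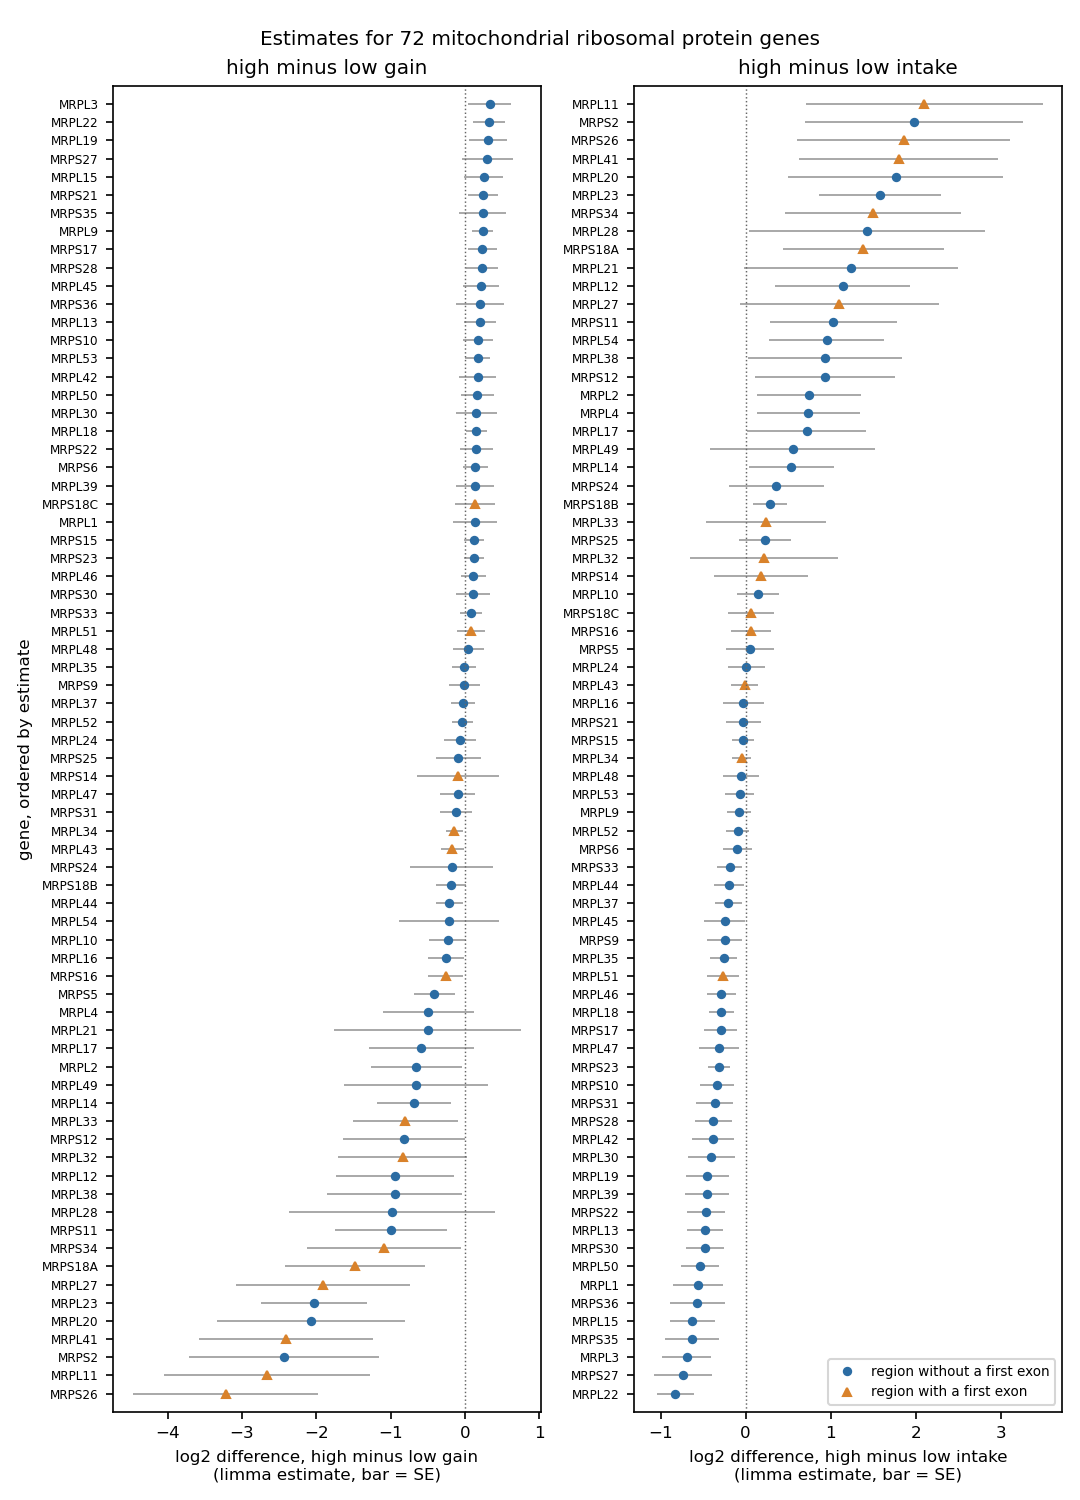
Log2 difference (horizontal axis) of 72 members for high minus low gain and for high minus low intake, as limma estimates with bars of 1 SE, ordered by estimate (vertical axis); triangles are members whose region holds a first exon. No estimate passed an adjusted p of 0.05; the lowest are MRPS26 at -3.22 for gain and MRPL22 at -0.83 for intake.

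Intake was compared in the same way, 8 animals against 8. Again no member and no other gene (0% of 9443) passed an adjusted p of 0.05. At an unadjusted p under 0.05, 1 member was higher (background 2.47%) and 8 were lower (background 5.81%) at high intake, against 8.28% of all genes in either direction. These 9, among 782 genes in all, became 25 without HH animal 4 (2363 of 9443 genes) and 3 without LH animal 1 (615 genes). They became 2 without HL animal 2 (461 genes) or LL animal 3 (550 genes). Without HH animal 1 (510 genes), HH animal 2 (505) or LH animal 4 (484) only 1 member was left. With the first-exon index as a covariate there were 3 members (657 genes). The 8 lower members were MRPL22, MRPL50, MRPL3, MRPL15, MRPS23, MRPL13, MRPS27 and MRPS30. None of their regions held a first exon, which is so for 58 of the 72 members. All 8 were higher in the 5 libraries than in the other 11, by 0.31 (MRPS23) to 1.10 (MRPL3) on the log2 scale, and by 0.94 for MRPL22. Low intake holds 4 of those 5, and the part of this in the intake estimates was not tested. The member median was -0.04 (all genes -0.01), with 32 positive and 40 negative estimates. Without the 5 libraries it was -0.19 with 17 positive, and with the index -0.14 with 14 positive. Scaling to the same median shifted all genes by -0.128, which left 28 positive members. Relative to all genes the member median was -0.03, and it turned to 0.09 under quantile normalization.

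MRPL22, whose product lines the exit tunnel through which the new protein leaves, had the smallest p of the members. It was at 7.66, 9.27, 12.80 and 19.53 in HH and 9.68, 11.44, 12.62 and 8.11 in LH. At low intake it was at 23.19, 29.93, 22.56 and 18.04 with high gain and 15.99, 13.30, 26.10 and 13.09 with low gain. A lone high-intake value, 19.53, was above the lowest low-intake value of 13.09, and it came from a library low in first exons. The means were 11.4 ± 3.82 at high and 20.3 ± 6.15 at low intake (SD, n = 8 each), with a log2 difference of -0.83 (SE 0.22, limma adjusted p = 0.528).

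The lower level of MRPL22 at high intake was present across much of its transcript. The region used was exon 3 (chromosome 7, 68127952 to 68128098). Exon 6 averaged 12.03 ± 3.66 in high-intake and 16.7 ± 3.32 in low-intake animals, exon 4 averaged 8.96 ± 4.01 and 12.1 ± 4.40, and the last exon 1.98 ± 0.505 and 2.62 ± 0.472. Exons 1 and 2 differed little, at 1.65 ± 1.52 and 1.71 ± 1.15 and at 4.35 ± 1.65 and 4.47 ± 1.84. The estimate was -0.40 in the last exon, -0.60 with the first-exon index and -0.85 without the 5 libraries.

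MRPL50, a large subunit protein specific to mitochondria, averaged 10.99 ± 4.09 in high-intake and 15.8 ± 4.94 in low-intake animals (log2 -0.54, SE 0.22, limma adjusted p = 0.528). MRPL3 was at 27.5 ± 15.7 and 41.8 ± 15.2 (log2 -0.69, SE 0.29, limma adjusted p = 0.528), and MRPL15 at 16.5 ± 8.87 and 24.5 ± 9.29 (log2 -0.63, SE 0.26, limma adjusted p = 0.528). In each of these 3 genes 7 of 8 high-intake libraries lay below the low-intake median, and the exception in each was HH animal 4, which is low in first exons. All 3 were also higher in the 5 libraries than in the 11, by 0.80, 1.10 and 0.91, and low intake holds 4 of those 5. Without the 5 libraries the estimates were -0.49, -0.51 and -0.68, and with the first-exon index -0.28, -0.36 and -0.32.

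The estimates above 0 for intake with the smallest p were MRPL23 (log2 1.58, SE 0.72, limma adjusted p = 0.528), MRPS2 (1.98, SE 1.28), MRPL41 (1.80, SE 1.17) and MRPL11 (2.10, SE 1.39). Each of these genes is near 0 in the 5 libraries, and the errors are wide. MRPL12, which also binds the mitochondrial RNA polymerase, was at 26.5 ± 11.3 and 18.5 ± 16.7 by intake (log2 1.14, SE 0.80) and at 17.2 ± 15.1 and 27.9 ± 12.2 by gain (log2 -0.94, SE 0.80). Neither difference of MRPL12 passed the test. No member's high-intake values lay wholly above or below the low-intake values (background 0.0212% above and 0.0529% below).

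The interaction asks whether the gain difference at high intake differs from that at low intake. No member had an unadjusted p under 0.05 (background 0.148% higher, 0.371% lower and 0.519% in either direction), and none of all tested genes passed an adjusted p of 0.05. Those 0 members became 11 without the 5 libraries (909 of 9443 genes), 4 with the first-exon index (492 genes) and 2 without LL animal 3 (231 genes), against 49 genes with all libraries. None of these fits had a gene past an adjusted p of 0.05. The smallest member p was that of MRPL34, whose mean was 18.5 ± 0.845 and 18.01 ± 0.873 at high intake with high and low gain, and 16.9 ± 1.83 and 21.3 ± 3.30 at low intake (SD, n = 4 each; log2 0.36, SE 0.23, limma adjusted p = 0.9998). The others with the smallest p were MRPL33 (1.97, SE 1.41), MRPS18C (-0.51, SE 0.54) and MRPS9 (-0.40, SE 0.42).

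HL, the more feed-efficient quadrant, was set against LH, 4 animals each. No gene of 9443 passed an adjusted p of 0.05. At an unadjusted p under 0.05, 6 members were higher (background 4.11%) and 6 lower (background 9.36%), 13.5% of all genes in either direction. These 12, among 1272 genes in all, became 25 without LL animal 3 (2717 of 9443 genes) and 19 without HH animal 4 (1777 genes). They became 7 without HL animal 3 (751 genes) or LH animal 1 (830 genes). Without LH animal 4 there were 5 (783 genes), and without HL animal 2 there were 3 (504 genes). The member median was 0.07 (all genes 0.01). Those 12 became 21 with the first-exon index (1832 genes), 19 with median scaling (1527 genes) and 24 under quantile normalization (2333 genes). Scaling to the same median shifted all genes by 0.323 and gave a member median of 0.39. Relative to all genes the member median was 0.06, and it turned to -0.18 under quantile normalization and to -0.04 without the 5 libraries. HL holds 3 of the 5 libraries low in first exons and LH holds none, so the difference between these groups and that between the library sets cannot be told apart.

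The values of 10 members lay wholly above those of LH (background 12.1%) and of 16 wholly below (background 16.9%). MRPL22 was at 23.4 ± 4.90 against 10.5 ± 1.98 (SD, n = 4 each), with log2 1.15 (SE 0.31, limma adjusted p = 0.368), and MRPL3 at 42.4 ± 11.5 against 21.2 ± 7.75 (log2 1.03, SE 0.41, limma adjusted p = 0.368). In the direction of a lower level, MRPL23 was at 0.195 ± 0.344 against 2.34 ± 0.525 (log2 -3.61, SE 1.01) and MRPS26 at 0.898 ± 1.43 against 16.2 ± 3.30 (log2 -5.08, SE 1.77). All 16 members that lay wholly below were also lower by more than 1 in the 5 libraries than in the 11.

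**Figure D5:**
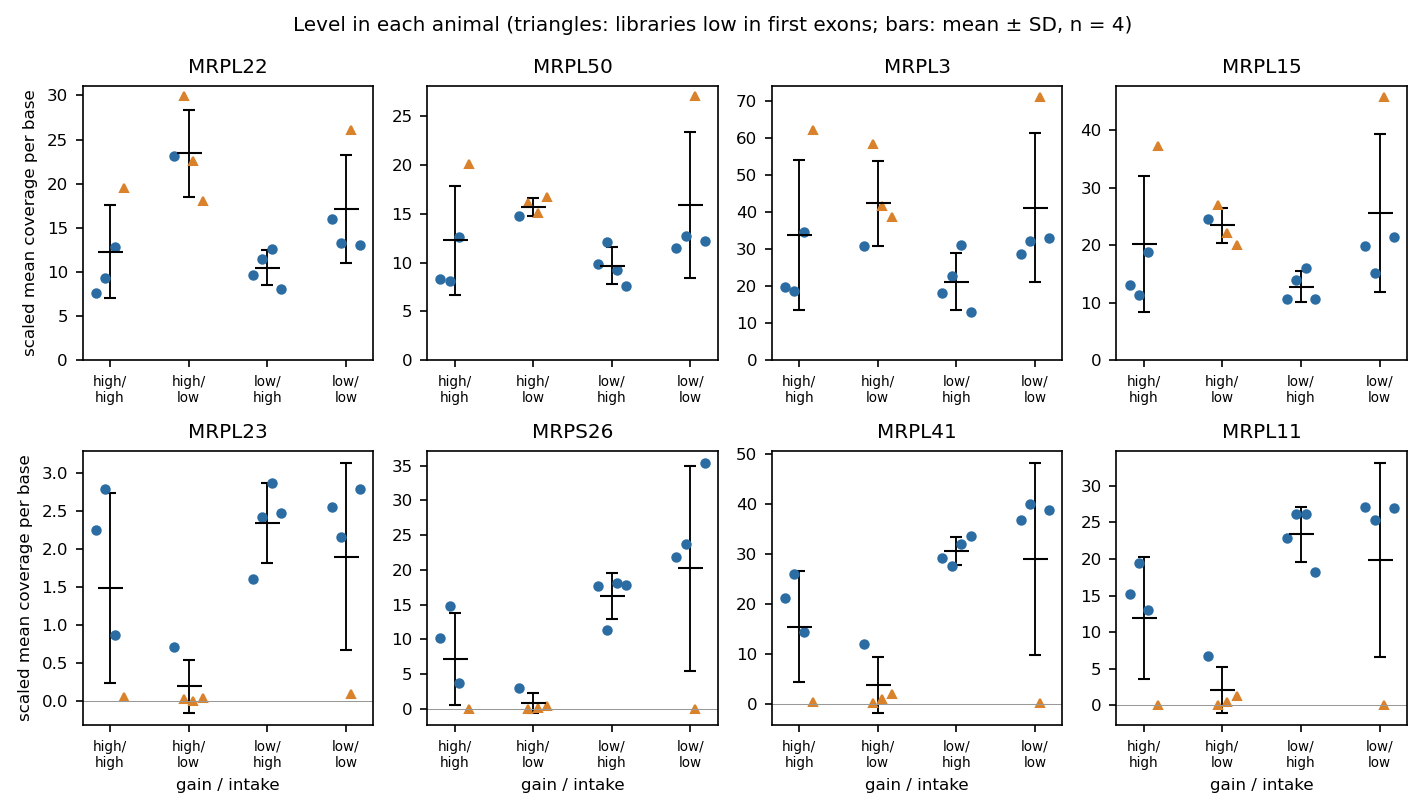
Scaled mean coverage per base of 8 members in each animal by group (gain first, then intake, on the horizontal axis), with bars for mean ± SD (n = 4) and triangles for the libraries low in first exons. In the lower row the triangles are all at 2.09 or below, and MRPL22 has 7 of its 8 high-intake values below every low-intake value.

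Among genes that work with this ribosome, of 20 tested assembly and RNA modification factors, 17 translation factors, 17 mitochondrial aminoacyl-tRNA synthetases, 10 genes of mitochondrial transcription and nucleoids and 10 regulators of biogenesis, none passed an adjusted p of 0.05 for gain or intake. Of 7 ribosome proteins under other symbols 5 were tested and none passed. Translation factors had 13 of 17 estimates below 0 for intake, with a median of -0.24, against 4762 of 9443 over all tested genes. The same 17 had a median of 0.45 between the 5 and the 11 libraries, with 8 higher by more than 0.5, and low intake holds 4 of those 5. The part of this in the intake estimates was not tested. RMND1 averaged 2.24 ± 1.00 in high-intake and 3.90 ± 0.875 in low-intake animals (log2 -0.88, SE 0.28, limma adjusted p = 0.528), and TSFM, which encodes an elongation factor, 14.3 ± 3.75 and 20.5 ± 3.68 (log2 -0.55, SE 0.19, limma adjusted p = 0.528). Among regulators PPARA averaged 2.33 ± 1.05 in high-gain and 3.78 ± 1.15 in low-gain animals (log2 -0.76, SE 0.30, limma adjusted p = 0.847).

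Nuclear oxidative phosphorylation genes had a median of -0.27 for gain (50 of 80 below 0) and 0.25 for intake (48 of 80 above 0). None of them passed an adjusted p of 0.05. Their median difference between the 5 and the 11 libraries was -1.05, with 40 of 80 lower by more than 1, and high gain and low intake each hold 4 of the 5. Cytosolic ribosomal protein genes had medians of -0.05 for gain and 0.13 for intake. No marker of other cells passed an adjusted p of 0.05 for gain, but estimates of 3 marker lists were all below 0: all 6 smooth muscle markers had estimates below 0 (median -1.66), with a median summed level of 19.67 in HH, 16.01 in HL, 35.64 in LH and 64.72 in LL, where the lowest library was at 3.25. These markers had a median difference of -2.56 between the 5 and the 11 libraries, with 5 of 6 lower by more than 1. All 6 endothelial markers were below 0 as well (median -0.50), with summed levels of 8.13 to 17.82 in the high-gain and 18.03 to 26.96 in the low-gain groups. All 6 fibroblast markers were too (median -0.41). For intake, 4 of 6 endothelial markers (median -0.52) and 3 of 6 fibroblast markers (median -0.69) were lower at an unadjusted limma p under 0.05. That was the direction of the 8 members above. The other 2 endothelial markers had estimates above 0 (up to 2.33), as did 1 fibroblast marker (1.12). Between the 5 and the 11 libraries the fibroblast markers had a median difference of 0.68, with 5 of 6 higher by more than 0.5. The endothelial markers had one of -0.01, with 2 higher by more than 0.5 and 2 lower by more than 1. Low intake holds 4 of those 5 libraries. Of 13 epithelial markers 3 were lower at that p, while 8 had estimates above 0 (median of the list 0.17). No smooth muscle marker was lower at that p, and 1 of 4 leukocyte markers was higher. The part of cell type markers in the members' differences was not tested.

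The 72 regions lie on 26 chromosomes, with 9 on chromosome 11, and the closest pair of regions is that of MRPL46 and MRPS11 on chromosome 21, 7541 bases apart. MRPS11, by exon 3, was lower in the 5 libraries, at 1.69 against 14.6 in the 11, whereas MRPL46, by exon 2, was at 11.6 against 9.85. In their first exons both were lower, MRPL46 at 0.24 to 0.98 against 2.95 to 9.39 and MRPS11 at 0 to 0.19 against 1.45 to 8.05. In their last-exon regions the differences were -0.78 for MRPL46 and -2.39 for MRPS11. Among members with no region of their own, MRPS7 had a mean of 8.73 and MRPL55 one of 7.11 in regions shared with MIF4GD and GUK1, whose reads cannot be assigned.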

How the data were processed

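Per the labels' protocols, polyadenylated RNA was captured on oligo-dT and sequenced from 1 end for 50 bases. TopHat2 2.08b and the bovine genome build UMD3.1 are named in the submitters' processing notes. How coverage was computed and which annotation was used were not given in the sources used here. Signal values, as deposited, are mean read coverage per base of 2351373 regions, brought by the authors to totals of 591.1 to 595.9 Mb per library, as read from the values. Depth was estimated from the value of 1 read. The deposited fold ratio, log2 ratio and p-value columns were not used.

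The 510 regions that several genes share were not used for levels. Levels were log2(value + 0.1) of genes with at least 0.5 in at least 4 libraries (9443; 2552 not tested). Adding 0.1 shrinks the ratio of 2 low values. A library listed at 0 can still make a mean log2 difference large, as for MRPL33 without the 5 libraries (means 1.77 and 3.32, log2 -2.59). limma 3.58.1 in R 4.3.3 (trend and robust) was fitted on 4 group means over 16 libraries, two-sided, with Benjamini-Hochberg adjustment over all genes. Tested on simulated data for gain over 9443 genes, it recovered 22% of 200 genes changed by 1 on the log2 scale and 70% of those changed by 2. The simulated noise was independent between genes and held no shared shift of the 5 libraries, so these shares may not hold for the real data. Animals are separate, and p-values measure the spread between them.

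Members and lists were chosen with earlier results of these data known. Named members were the 4 per direction with the smallest p for gain and intake, the 2 per direction for the other contrasts, the 5 highest and lowest in level and in SD, any past the threshold, and 13 fixed genes, with up to 3 genes of each other list. Alternatives were the pseudocount, the filter, the region, the scaling, the limma options, the first-exon index and leaving out libraries.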

Additional observations from a re-analysis of the deposited data

Results flagged for a closer look

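In 30 of 144 sets of 4 values (36 named members in 4 groups), the highest or lowest animal stood apart from the other 3. The gap had to exceed Dixon's critical share of the group's range on the log2(level + 0.1) scale. A rate of about 1 in 20 holds for independent sets not chosen by their values. These sets share the same 16 libraries, and many members were named for their SD, level or p, so the 2 rates cannot be compared. The values given are levels. LL animal 3 was low for MRPL11 (0), MRPL12 (0.96), MRPL17 (1.59), MRPL20 (0), MRPL23 (0.10), MRPL28 (0), MRPL32 (0), MRPL33 (0.52), MRPL41 (0.21), MRPL44 (8.57), MRPS2 (0), MRPS18C (3.06), MRPS26 (0.04) and MRPS34 (0.15). The same animal was high for MRPL13 (63.96), MRPL3 (71.19), MRPL50 (27.08) and MRPL9 (14.4). HH animal 4 was low for MRPL11 (0), MRPL17 (7.07), MRPL20 (0.13), MRPL28 (0.35), MRPL32 (0.24), MRPL41 (0.31) and MRPS34 (1.9). Both libraries are low in first exons. HL animal 1 was high for MRPL23 (0.71) and MRPS18C (16.02), and animal 2 of that group was low for MRPL32 (0.28). In LH, animal 2 was low for MRPS26 (11.29) and animal 4 for MRPS9 (5.51).

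Coverage was also present in 11 regions that hold exons of a member and of another gene and were left out of the levels. Their mean levels were 2.42 for MRPL47 with ACTL6A, 6.36 for MRPS22 with COPB2, 6.88 for MRPL23 with AGGF1 and 2.01 for MRPL33 with RBKS. MRPS12 shared regions with SARS2 (1.28, and 1.1 estimated reads in the library with the fewest) and with FBXO17 (3.46). The others were MRPS7 with MIF4GD (8.73), MRPS18A with RSPH9 (1.53), MRPL49 with SYVN1 (10.8), MRPL24 with RRNAD1 (5.15) and MRPL55 with GUK1 (7.11).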

How the results depend on the processing

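No paired analysis was possible because animals are numbered within groups in accession order only. For gain, 0 genes and 0 members passed an adjusted p of 0.05; with the first-exon index as a covariate 1370 genes and 18 members passed, without the 5 libraries 58 and 4, and leaving out each library in turn 0 to 58 genes (58 without LL animal 3) and 0 members. With the index the sign turned for MRPL11 (1.10), MRPL41 (0.76), MRPS26 (0.20), MRPL19 (-0.28), MRPL22 (-0.10) and MRPS17 (-0.17), and for MRPS26 between HL and LH (0.16). MRPS17 was at -0.0052 for gain without the 5 libraries. The interaction turned for MRPL33 (-0.069) and MRPS18C (0.0063), both in the best region without a first exon and in that with the last exon. For intake, 2 genes passed with the mean over all exon regions and 0 to 1 when each library was left out (1 without HH animal 4). HL against LH gave 2 genes without the 5 libraries and 0 to 1 when each library was left out (1 without LH animal 3), and a member median of 0.39 with median scaling. The median level of members was 5.62 as the mean over all exon regions, and 11.8 as reported. The reported region of each gene was the one with the highest mean, so the mean over all its regions could not be higher. The cause of the other changes in this paragraph was not tested. In the fits on regions without a first exon or with the last exon, 66 of 72 members had a level, and MRPL41, with a lone exon, had none without a first exon. Depth limits MRPL33, MRPS12 and MRPL32 most, whose regions hold a median of 4.4, 8.76 and 14.6 estimated reads per library.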
